A study of Mus musculus with 9 samples.

Results

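Solute carriers are the membrane transporters that move amino acids, sugars, metals, nucleosides, lipids and ions into cells and between their compartments. Their mRNA levels were followed in mouse cells that were driven by the transcription factor Sox17 away from the embryonic stem cell (ESC) state, and in wild-type extraembryonic endoderm (XEN) stem cells. A row of the deposited gene table was taken as a member where its symbol had the form Slc, a number, the letter a and a number, and where its FPKM (a level per transcript length and per mapped fragments of the library) was 10 or more in at least 1 library with an accepted estimate. Of 37975 rows, 341 had such a symbol and 139 of these reached 10 FPKM. The threshold used the same FPKM values that are described here, so the members' levels are a description. A member that passed only through the library where it is high had to differ. The last members inside the threshold were Slc37a2 at 10.1, Slc25a16 at 10.2, Slc26a10 at 10.3 and Slc25a32 at 10.4 FPKM in their highest library. The first outside it were Slc35a5 at 9.83, Slc25a15 at 9.53, Slc26a11 at 9.49 and Slc41a2 at 9.13 FPKM.

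The 139 members were grouped by substrate into 27 for amino acids, peptides and creatine, 15 for sugars and nucleotide sugars, 24 for metals, 3 for nucleosides, 11 for lipids and their precursors, 4 for monocarboxylates and citrate, 22 mitochondrial carriers, 18 for inorganic ions, 7 for vitamins and 4 with another or no assigned substrate. A further 4 carry such a symbol without being carriers by name. Slc9a3r1 and Slc9a3r2 are scaffold proteins, Slc4a1ap is an adaptor protein, and Slc7a6os is named for lying opposite Slc7a6.

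The libraries were 9, with 1 for each group, so no pair of groups has a replicate check. The Sox17 line consists of ESC that overexpress Sox17 when doxycycline (dox) is given. It was sampled without dox, after 7 h, 21 h, 35 h and 49 h with dox at 100 ng/ml, at day 6, and as Sox17-XEN cells, whose label gives 30 days with dox and 30 days without in a wording that leaves their order unclear and whose description names them independent of dox. The name of the day 6 library contains the word SORT, and the labels do not say what was sorted. The wild-type pair was XEN cells of the line IM8AR and ESC of the line R1. ESC were grown on mouse embryonic fibroblasts in serum with LIF, the cytokine that sustains them, and XEN cells in serum with medium conditioned by such fibroblasts.

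The states of the libraries can be read from genes other than transporters. Nanog, a pluripotency factor, stood at 1.89 FPKM at day 6, 0.163 in Sox17-XEN and 0.325 in wild-type XEN, against 169 in the Sox17 line without dox and 169 in R1 ESC. Gata6, a factor of primitive endoderm, stood at 84.8, 210 and 99.9 FPKM in the first 3, against 0.282 in the Sox17 line without dox and 0.214 in R1 ESC. Pou5f1, which also marks pluripotent cells, was still 325 FPKM at day 6, against 723 without dox, and 2.54 in Sox17-XEN and 3.22 in wild-type XEN. The 20 fibroblast genes chosen as marks of feeder cells summed to 228 FPKM at day 6, 992 in Sox17-XEN and 19.6 in wild-type XEN, against 2400 without dox and 1010 in R1 ESC. Between 7 h and 49 h their sum lay between 1128 and 2870 FPKM. Of the 20, 17 stood at 1 FPKM or more at day 6, 19 in Sox17-XEN, 4 in wild-type XEN, 20 without dox and 18 in R1 ESC, and Fap was listed at 0 in wild-type XEN. The mitochondrial ribosomal RNA mt-Rnr2 had 198 FPKM at day 6, 82.3 in Sox17-XEN and 13.8 in wild-type XEN, against 207 without dox and 9.69 in R1 ESC. From 7 h to 49 h it lay between 20.6 and 23.9 FPKM, so the library without dox differed from the early ones of its own line. The part of either in the transporter differences was not tested. In bulk libraries, fewer cells of a type and less RNA per cell cannot be told apart.

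Most carriers work at the cell surface, where they set which nutrients a cell takes up, and some are exchangers that pass one amino acid out for each one brought in. The y+ and y+L systems carry cationic amino acids such as arginine, systems A and N carry glutamine and other small neutral amino acids with sodium, and the GLUT family carries glucose down its gradient. Primitive endoderm forms the yolk sac lineages, whose visceral layer feeds the early embryo by absorbing nutrients from the mother, while its parietal layer secretes a basement membrane.

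Promoter sequences were looked up to show where the letters recognised by SOX factors stand near transporter start sites, since Sox17 is the induced factor. RefSeq windows of GRCm38.p6 reaching 250 bases before and 50 after a start were held for 105 of the 139 members, in 145 windows. The core letters ACAATG, searched on both strands, were in 4 of the 145 windows (2.76%), against 12.6% of all 32851 promoter windows. The core AGATAA of GATA factors was in 13 of them (8.97%), against 11.2% of all windows. The core TGATGNAA, part of the composite element read by the amino acid response factor ATF4, was in 5 (3.45%), against 3.97% of all windows. The 4 windows with ACAATG on either strand belong to Slc16a3, a lactate carrier, Slc25a13, the mitochondrial aspartate-glutamate carrier, Slc38a4, a system A carrier, and Slc7a1, a cationic amino acid carrier, and are printed 5′ to 3′ on the strand of the gene. Capitals mark ACAATG or its reverse complement CATTGT and, in Slc38a4, AGATAA. Slc38a4 and Slc7a1 also have windows at other starts, which hold none of these letters and are not printed.
Slc16a3 (chr11:120948817-120949116, plus strand): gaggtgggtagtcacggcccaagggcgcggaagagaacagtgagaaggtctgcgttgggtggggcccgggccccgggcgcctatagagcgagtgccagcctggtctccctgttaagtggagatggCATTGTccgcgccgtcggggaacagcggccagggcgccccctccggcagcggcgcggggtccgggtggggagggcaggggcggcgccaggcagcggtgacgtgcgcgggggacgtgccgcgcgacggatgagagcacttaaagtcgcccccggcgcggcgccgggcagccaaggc
Slc25a13 (chr6:6217124-6217423, minus strand): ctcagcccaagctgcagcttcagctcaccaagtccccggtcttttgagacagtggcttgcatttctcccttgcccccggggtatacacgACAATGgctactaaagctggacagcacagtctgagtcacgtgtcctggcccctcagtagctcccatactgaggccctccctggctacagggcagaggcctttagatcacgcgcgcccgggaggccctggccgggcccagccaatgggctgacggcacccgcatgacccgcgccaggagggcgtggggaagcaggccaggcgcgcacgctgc
Slc38a4 (chr15:97031164-97031463, minus strand): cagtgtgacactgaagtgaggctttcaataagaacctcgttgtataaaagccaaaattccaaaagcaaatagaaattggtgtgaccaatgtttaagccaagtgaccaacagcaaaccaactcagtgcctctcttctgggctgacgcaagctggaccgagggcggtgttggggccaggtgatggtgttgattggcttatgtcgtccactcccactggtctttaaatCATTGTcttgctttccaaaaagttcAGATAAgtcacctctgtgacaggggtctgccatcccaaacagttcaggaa
Slc7a1 (chr5:148392766-148393065, minus strand): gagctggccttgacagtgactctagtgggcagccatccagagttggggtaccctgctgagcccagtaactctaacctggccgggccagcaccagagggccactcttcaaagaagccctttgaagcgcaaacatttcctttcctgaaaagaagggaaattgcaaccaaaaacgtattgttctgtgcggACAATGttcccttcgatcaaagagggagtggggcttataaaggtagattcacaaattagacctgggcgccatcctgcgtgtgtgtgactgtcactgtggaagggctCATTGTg
Counted from the start at 1, with -1 the base before it, the letters begin at -125 in Slc16a3, at -161 in Slc25a13, at -25 in Slc38a4, and at -63 and 44 in Slc7a1. The 4 genes did not share a direction. At day 6, in Sox17-XEN and in wild-type XEN, Slc16a3 stood at 241, 165 and 226 FPKM, against 75.6 without dox and 70.6 in R1 ESC, and it shares its listed locus with Csnk1d, so that its value is less certain. Slc25a13 stood at 20.1, 11.9 and 23.7 FPKM in the first 3, against 24.2 without dox and 20.2 in R1 ESC. A match to these letters is a description of the window and no evidence of binding.

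Differences are given as log2(FPKM + 1) in one library minus that in another. Higher and lower mean a difference of 2 or more on that scale, which is 4-fold in FPKM + 1. At day 6, 26 of the 139 members (18.7%) were higher than in the Sox17 line without dox and 3 (2.16%) were lower. Of all rows with 1 FPKM or more, 5.14% were higher and 3.86% lower, and of the rows with 10 FPKM or more, which were chosen by the same level as the members, 7.2% were higher and 4.76% lower. The median difference was 0.86 over the members and 0.24 over the rows with 10 FPKM or more. In Sox17-XEN, 21 members (15.1%) were higher and 6 (4.32%) lower than without dox, with background shares of 5.75% and 5% at 1 FPKM or more and of 8.16% and 5.76% at 10 FPKM or more, and medians of 0.78 over the members and 0.35 over the rows with 10 FPKM or more. In wild-type XEN, 25 members (18%) were higher and 6 (4.32%) lower than in R1 ESC, with background shares of 8.24% and 6.54% at 1 FPKM or more and of 11.8% and 7.47% at 10 FPKM or more, and medians of 0.92 over the members and 0.46 over those rows. In all 3 comparisons the higher members outnumbered the lower ones by more than the background did. Of the higher members, 7 of 26 reached 10 FPKM at day 6 and in no other library, as did 2 of 21 in Sox17-XEN and 0 of 25 in wild-type XEN. The 7 were Slc13a5, Slc37a2, Slc44a3, Slc44a4, Slc46a1, Slc7a8 and Slc7a9, and the 2 were Slc43a1 and Slc6a2. Under 10 FPKM in the ESC library of the pair, and so admitted through another library, were 17 of 26, 14 of 21 and 18 of 25. The comparisons of day 6 and of Sox17-XEN share the library without dox, so their counts are not independent.

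Setting to 0 the median difference of rows with 1 FPKM or more in both libraries removed 0.21 from the differences at day 6, 0.33 from those in Sox17-XEN and 0.45 from those in wild-type XEN. The counts were then 22 higher and 3 lower at day 6, 13 higher and 11 lower in Sox17-XEN, and 12 higher and 8 lower in wild-type XEN. On that scale 15.8% of the members were higher and 2.16% lower at day 6, against 5.77% and 5.59% of the rows with 10 FPKM or more. In Sox17-XEN the shares were 9.35% and 7.91% of the members, against 5.7% and 7.3% of those rows. In wild-type XEN they were 8.63% and 5.76% of the members, against 7.51% and 9.09% of those rows. The excess of higher over lower members was thus smaller in the XEN-type cells on that scale, where lower rows outnumbered higher ones in the background. With R1 ESC as the control in place of the Sox17 line without dox, an alternative chosen after seeing the data, 29 members were higher and 2 lower at day 6 (6.77% and 3.42% of rows with 1 FPKM or more), and 28 were higher and 8 lower in Sox17-XEN (8.79% and 5.29%).

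Levels of the whole group are given as a description. The members were chosen by these same FPKM values, and no matching counts over all rows were made. The median member stood at 19.8 FPKM at day 6, 18.8 in Sox17-XEN and 16.1 in wild-type XEN, against 10.01 without dox and 8.65 in R1 ESC. Between 7 h and 49 h it lay between 9.38 and 11.9 FPKM. At 10 FPKM or more stood 116 members at day 6, 104 in Sox17-XEN and 100 in wild-type XEN, against 70 without dox and 64 in R1 ESC. The highest library of a member was day 6 for 52 members, Sox17-XEN for 41 and wild-type XEN for 28, and the 6 ESC-state or early dox libraries together held the remaining members, with 7 in R1 ESC and at most 3 in each of the others. The members at 10 FPKM or more in all 9 libraries numbered 51, and 24 reached it in a single library, which was day 6 for 16 of them. Over the 9 libraries the range of log2(FPKM + 1) was 2.07 for the median member. It was smallest for Slc25a3, the mitochondrial phosphate carrier, at 0.48, and its largest values were 6.41 for Slc7a3, 6.13 for Slc38a4, 5.65 for Slc44a3 and 5.10 for Slc6a2.

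**Figure D1:**
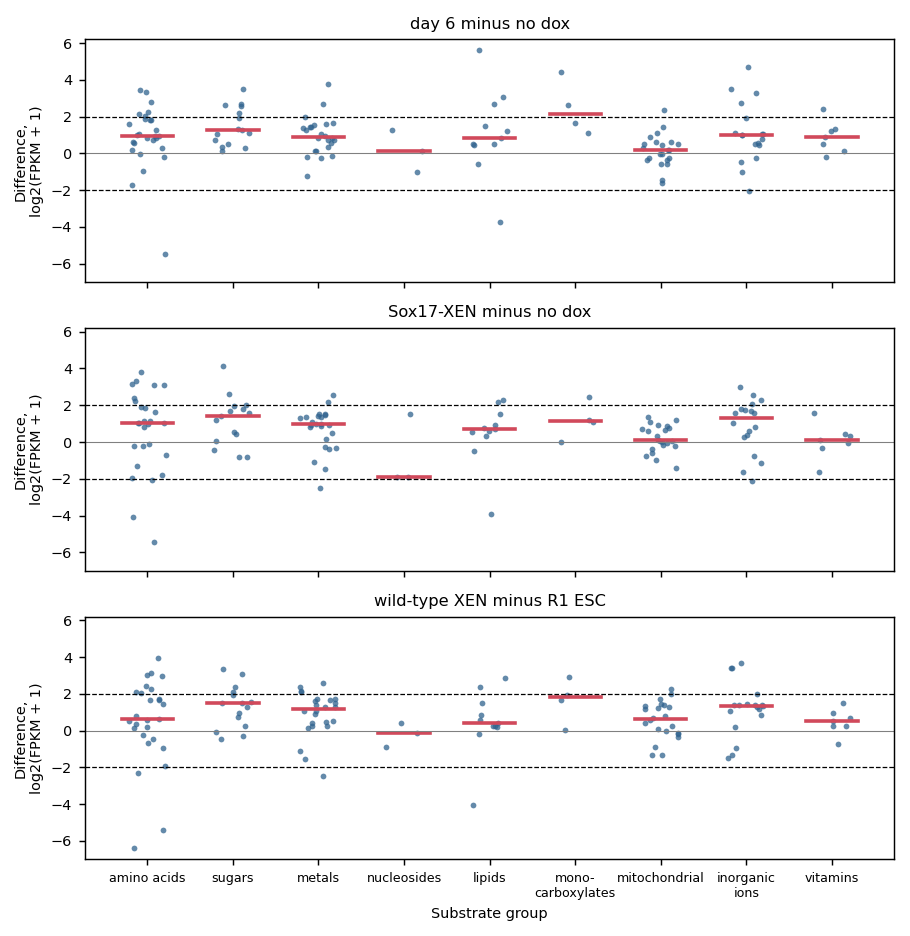
Difference in log2(FPKM + 1) of each transporter with an assigned substrate class, at day 6 and in Sox17-XEN against the Sox17 line without dox and in wild-type XEN against R1 ESC, with 1 library per group. Points are genes spread sideways for sight, red bars are class medians and dashed lines mark 2 and -2. The amino acid class holds both the lowest value, -6.41 for Slc7a3 in wild-type XEN, and genes above 3, while the mitochondrial carriers stay within -1.58 and 2.37.

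The counts by class stand beside these shares of all rows with 10 FPKM or more. At day 6, 7.2% were higher and 4.76% lower. In Sox17-XEN the shares were 8.16% and 5.76%, and in wild-type XEN 11.8% and 7.47%. In classes this small, a count of 0 or 1 is no result about the class. Among amino acid transporters, 6 of 27 were higher and 1 lower at day 6, 7 higher and 3 lower in Sox17-XEN, and 8 higher and 3 lower in wild-type XEN, with median differences of 0.92, 1.04 and 0.65. Slc7a3 (chrX:98274549-98281359 in mm9) encodes the cationic amino acid carrier CAT3 and is 1 of the 2 transporters chosen as markers for their known pattern in these data, so its levels are given with no test. It stood at 74.1 FPKM without dox, 54.8 after 7 h, 6.71 after 21 h, 13.2 after 35 h, 16.5 after 49 h, 0.685 at day 6 and 3.39 in Sox17-XEN. It stood at 0.264 FPKM in wild-type XEN and at 106 in R1 ESC, the highest amino acid transporter of that library. The level after 21 h lay below those after 35 h and 49 h, and all libraries from 21 h on lay below the 2 ESC lines without dox. The differences were -3.28 after 21 h, -2.40 after 35 h, -2.10 after 49 h, -5.48 at day 6 and -4.09 in Sox17-XEN, and -6.41 in wild-type XEN against R1 ESC.

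Slc7a1 (chr5:149138986-149211480) encodes CAT1, the widely expressed carrier of the same amino acids, and its levels went the opposite way. It stood at 10.4 FPKM without dox, 7.44 after 7 h, 6.53 after 21 h, 5.75 after 35 h, 8.76 after 49 h, 33.2 at day 6 and 95.5 in Sox17-XEN. It stood at 34.6 FPKM in wild-type XEN, against 7.58 in R1 ESC. The early libraries all lay at or below the level without dox, and the day 6 and XEN-type libraries all lay above every ESC library. The differences were 1.59 at day 6, which is under 2, 3.08 in Sox17-XEN and 2.05 in wild-type XEN.

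Slc7a6 (chr8:108692775-108722604) encodes y+LAT2, a light chain that exchanges cationic for neutral amino acids, and was the largest increase among amino acid transporters at day 6 and in wild-type XEN. It stood at 11.1 FPKM without dox, between 7.60 and 15.2 from 7 h to 49 h, 130 at day 6 and 102 in Sox17-XEN. It stood at 142 FPKM in wild-type XEN, against 8.39 in R1 ESC. No level from day 6 or a XEN-type library overlapped the others, and the differences were 3.44, 3.09 and 3.92. Slc3a2, the heavy chain that carries such light chains to the membrane, stood at 151 FPKM at day 6, 128 in Sox17-XEN and 127 in wild-type XEN, against 61.7 without dox and 97.9 in R1 ESC, with no difference of 2 or more. Its relative Slc7a7, the light chain y+LAT1, stood at 50.8, 11.4 and 13.0 FPKM in the first 3, against 41.4 without dox and 52.4 in R1 ESC, and in both XEN-type lines lay just short of the size taken as lower. Slc7a7 shares its listed locus with Oxa1l, so its value is less certain.

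The Slc38 family, which holds carriers of systems A and N, had 4 members past 2 in at least 1 of the 3 comparisons. Slc38a4 (chr15:96825254-96886387), a system A carrier that is imprinted in mouse, stood at 53.9 FPKM without dox, 53.4 after 7 h, 71.4 after 21 h, 74.3 after 35 h, 68.4 after 49 h, 27.7 at day 6 and 0.271 in Sox17-XEN. It stood at 0.0753 FPKM in wild-type XEN, against 45.2 in R1 ESC. It was thus kept through 49 h, was intermediate at day 6 with a difference of -0.94, and differed by -5.43 in each XEN-type line from its ESC line. Its relative Slc38a1 went the other way, at 27.1 FPKM at day 6, 87.9 in Sox17-XEN and 81.0 in wild-type XEN, against 18.1 without dox and 14.2 in R1 ESC. Slc38a5, a system N carrier, stood at 6.76, 22.1 and 12.1 FPKM in the first 3, against 0.632 without dox and 0.583 in R1 ESC. Slc38a6, a less studied member of the family, stood at 57.7, 139 and 139 FPKM, against 13.3 without dox and 15.1 in R1 ESC. Slc38a2, the system A carrier known for its response to amino acid shortage, had the highest level of the class in wild-type XEN, at 201 FPKM, against 63.6 in R1 ESC, which is under a difference of 2.

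Other amino acid carriers differed in 1 or more of these states. Slc7a8 and Slc7a9, the light chains LAT2 and b0,+AT of absorptive epithelia such as the kidney tubule, stood at 10.9 and 12.4 FPKM at day 6 and at 1.65 or less in every other library. Their differences at day 6 were 2.77 and 3.32. Slc43a2, which carries large neutral amino acids, stood at 26.3 FPKM at day 6, 11.4 in Sox17-XEN and 1.35 in wild-type XEN, against 5.16 without dox and 3.49 in R1 ESC. Slc43a1, its relative, was high in Sox17-XEN alone, at 25.6 FPKM against 3.98 without dox and 8.08 in wild-type XEN. Slc36a4, a carrier of proline and tryptophan, stood at 24.3 FPKM in Sox17-XEN and 13.2 in wild-type XEN, against 1.87 without dox and 0.793 in R1 ESC. Slc36a1, a proton-coupled carrier found on lysosomes, stood at 18.3 FPKM at day 6, 15.6 in Sox17-XEN and 15.6 in wild-type XEN, against 4.38 without dox and 2.83 in R1 ESC, and was past 2 in wild-type XEN. Slc15a2, the peptide carrier PEPT2, was lower in both XEN-type lines, at 0.606 FPKM in Sox17-XEN and 0.0806 in wild-type XEN, against 5.74 without dox and 4.37 in R1 ESC, after 10.1 to 13.6 FPKM from 21 h to 49 h.

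Slc1a3 (chr15:8584124-8660764), the other marker, encodes the glutamate carrier GLAST, and its levels set the 2 XEN-type lines apart. It stood at 6.82 FPKM without dox, 3.56 after 7 h, 3.22 after 21 h, 4.02 after 35 h, 4.96 after 49 h, 13.8 at day 6 and 1.05 in Sox17-XEN. It stood at 31.5 FPKM in wild-type XEN, against 5.799 in R1 ESC. Sox17-XEN was thus the lowest library and wild-type XEN the highest, with a difference of -3.99 between them.

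**Figure D2:**
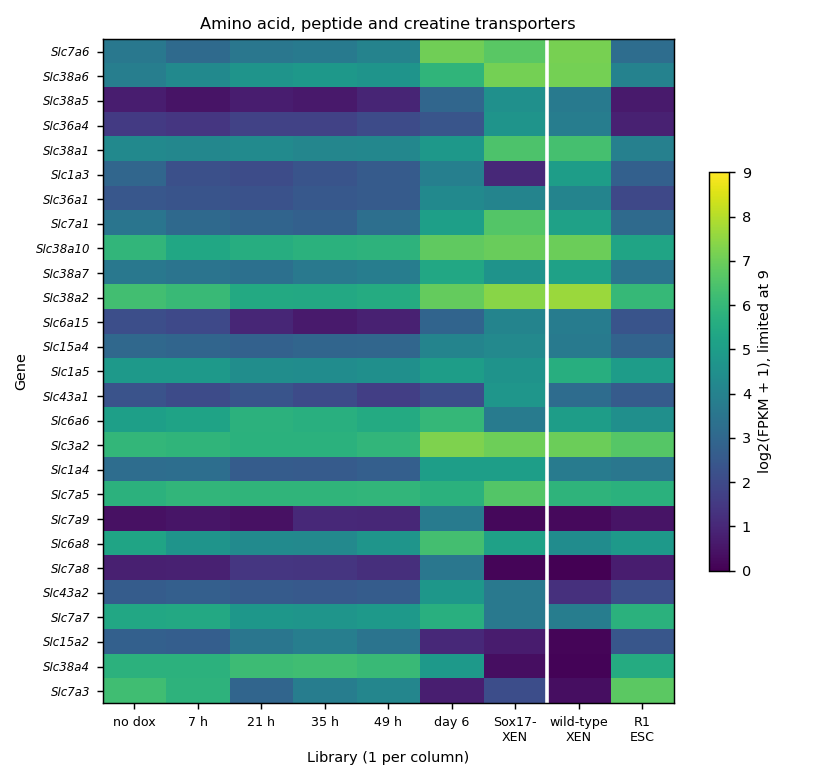
Level of the 27 amino acid, peptide and creatine transporters in each of the 9 libraries, as log2(FPKM + 1) limited at 9, with the dox course and Sox17-XEN left of the white line and wild-type XEN and R1 ESC right of it. Slc7a6 and Slc38a6 at the top are bright at day 6 and in both XEN-type lines, and Slc38a4 and Slc7a3 at the bottom are dark in both XEN-type lines.

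Among sugar and nucleotide sugar transporters, 5 of 15 were higher at day 6, 3 in Sox17-XEN and 4 in wild-type XEN, and 0 were lower in any of the 3, with median differences of 1.25, 1.43 and 1.5. Slc2a3 (chr6:122677827-122751658), which encodes the high-affinity glucose carrier GLUT3, had the highest level of all 139 members. It stood at 212 FPKM without dox, 200 after 7 h, 184 after 21 h, 313 after 35 h, 354 after 49 h, 1256 at day 6 and 217 in Sox17-XEN. It stood at 1628 FPKM in wild-type XEN, against 192 in R1 ESC. Sox17-XEN was at the ESC level, with a difference of 0.03 from the line without dox and of -2.90 from wild-type XEN, while day 6 and wild-type XEN were higher by 2.56 and 3.08. Slc2a1, the widely expressed glucose carrier GLUT1, stood at 276 FPKM at day 6, 93.8 in Sox17-XEN and 193 in wild-type XEN, against 169 without dox and 165 in R1 ESC.

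The other sugar transporters that differed serve lysosomes, the endoplasmic reticulum and the Golgi, or have no settled substrate. Slc17a5, which exports sialic acid from lysosomes, stood at 40.9 FPKM at day 6, 13.4 in Sox17-XEN and 12.1 in wild-type XEN, against 2.72 without dox and 2.36 in R1 ESC. Slc37a4, which brings glucose 6-phosphate into the endoplasmic reticulum, was higher in all 3, at 20.6, 12.7 and 17.8 FPKM, against 2.36 without dox and 2.63 in R1 ESC. Its relative Slc37a2 was higher at day 6, at 10.1 FPKM against 0.780. Slc50a1, of the SWEET family, stood at 65.1, 88.7 and 47.9 FPKM, against 13.7 without dox and 15.7 in R1 ESC. Slc35a3, which carries UDP-N-acetylglucosamine into the Golgi, stood at 20.6 FPKM in wild-type XEN, against 4.02 in R1 ESC. Slc45a3, known as prostein in the prostate, separated the XEN-type lines from all other libraries, at 39.2 FPKM in Sox17-XEN and 19.2 in wild-type XEN, against 1.30 without dox and 0.964 in R1 ESC. At day 6 it stood at 1.49 FPKM, close to the 1.46 FPKM after 35 h, so it differed by -3.01 from wild-type XEN.

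Among metal transporters, 3 of 24 were higher and 0 lower at day 6, 2 higher and 1 lower in Sox17-XEN, and 4 higher and 1 lower in wild-type XEN, with median differences of 0.90, 0.96 and 1.15. The higher shares were 12.5%, 8.33% and 16.7%, against 7.2%, 8.16% and 11.8% of rows with 10 FPKM or more, so that in Sox17-XEN was near the background. Slc39a8, the zinc and manganese carrier ZIP8, was higher in all 3. It stood at 1.61 FPKM without dox, 0.681 after 7 h, 0.917 after 21 h, 1.48 after 35 h, 2.63 after 49 h, 34.2 at day 6 and 14.4 in Sox17-XEN. It stood at 15.4 FPKM in wild-type XEN, against 1.70 in R1 ESC. The day 6 and XEN-type libraries did not overlap the ESC and early libraries, and the differences were 3.75, 2.56 and 2.60. Slc39a4, the intestinal zinc carrier ZIP4, was high at day 6 alone, at 84.2 FPKM, against 12.0 without dox, and stood at 9.97 FPKM in Sox17-XEN and 5.23 in wild-type XEN. Slc39a7, which releases zinc from the endoplasmic reticulum, had the highest level of the class in each state, at 201 FPKM at day 6 and 174 in wild-type XEN, against 70.2 in R1 ESC. Slc39a10, another zinc carrier, was higher in wild-type XEN, at 55.6 FPKM against 11.6 in R1 ESC, but stood at 17.5 FPKM in Sox17-XEN against 21.9 without dox. Slc30a4, which loads zinc into vesicles, was higher in both XEN-type lines.

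Iron, haem and copper carriers did not share a direction. Slc40a1, the iron exporter ferroportin, stood at 6.35 FPKM without dox, 5.13 after 7 h, 6.96 after 21 h, 11.9 after 35 h, 13.8 after 49 h, 14.2 at day 6 and 0.302 in Sox17-XEN. It stood at 0.552 FPKM in wild-type XEN, against 3.49 in R1 ESC. Its levels from 21 h to day 6 thus lay on the other side of the ESC level from those of the XEN-type lines, with differences of 1.05 at day 6, -2.50 in Sox17-XEN and -1.53 in wild-type XEN. Slc11a2, the iron importer DMT1, was higher in wild-type XEN at 65.0 FPKM, against 11.9 in R1 ESC. Slc48a1, a haem carrier, was lower there at 0.944 FPKM, against 9.86 in R1 ESC. Slc31a1, the copper importer CTR1, stood at 47.2 FPKM at day 6, against 11.04 without dox, a difference just past 2.

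**Figure D3:**
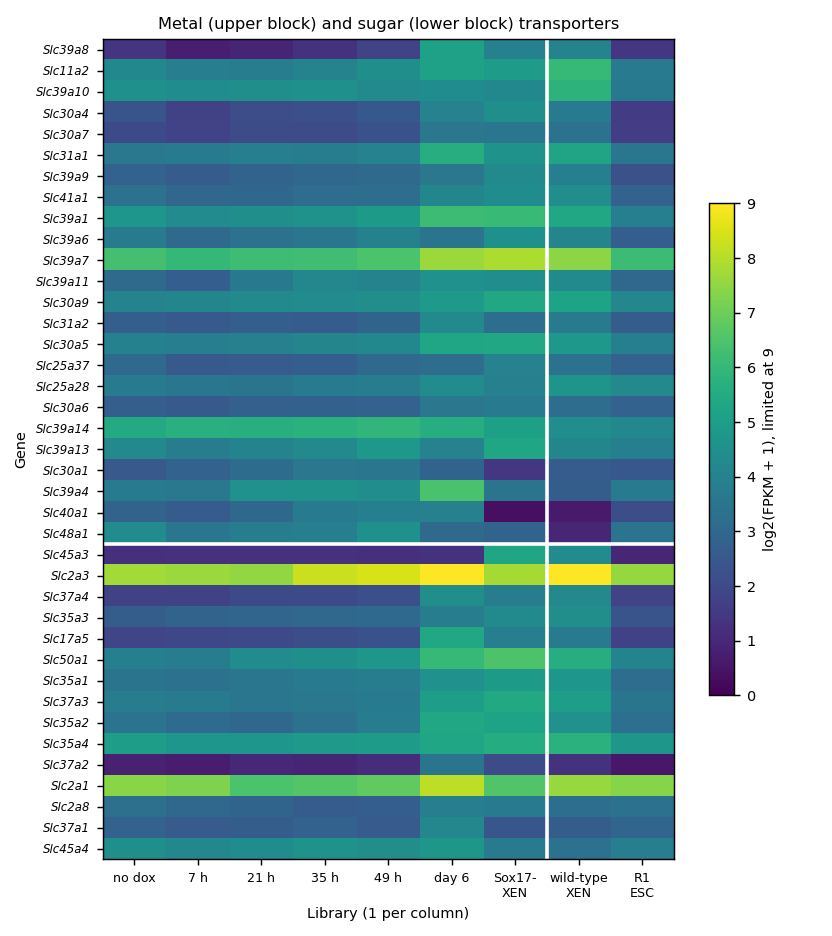
Level of the 24 metal transporters (above the horizontal white line) and the 15 sugar transporters (below it) in each of the 9 libraries, as log2(FPKM + 1) limited at 9, with the dox course and Sox17-XEN left of the vertical white line and wild-type XEN and R1 ESC right of it. Slc2a3 is brightest at day 6 and in wild-type XEN (1256 and 1628 FPKM), and Slc40a1 is dark in both XEN-type lines (0.302 and 0.552 FPKM).

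Of the 3 nucleoside transporters, 0 were higher or lower at day 6, in Sox17-XEN or in wild-type XEN. Slc29a1, the equilibrative carrier ENT1, stood at 327 FPKM at day 6, 393 in Sox17-XEN and 119 in wild-type XEN, against 136 without dox and 128 in R1 ESC. Day 6 and Sox17-XEN thus lay above both ESC lines, while wild-type XEN was close to them. Slc29a2, the equilibrative carrier ENT2, stood at 8.21 FPKM at day 6, 1.28 in Sox17-XEN and 10.4 in wild-type XEN, against 7.50 without dox and 7.56 in R1 ESC. Sox17-XEN was its lowest library, with a difference of -2.32 from wild-type XEN. Slc28a1, the concentrative pyrimidine nucleoside carrier CNT1, stood at 8.38 FPKM without dox, 5.96 after 7 h, 1.35 after 21 h, 2.38 after 35 h, 2.17 after 49 h, 3.57 at day 6 and 1.46 in Sox17-XEN, and at 6.09 FPKM in wild-type XEN and 12.1 in R1 ESC. Its level after 21 h was the lowest of the 9 libraries, and lower than without dox by just under the size of 2.

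Among the 11 lipid transporters, 3 were higher and 1 lower at day 6, and 2 were higher and 1 lower in each XEN-type line, with median differences of 0.86, 0.70 and 0.43. Slc27a2 (chr2:126346938-126413979), a fatty acid carrier that also activates very long chain fatty acids, was the lower one in all 3. It stood at 14.5 FPKM without dox, 30.4 after 7 h, 19.9 after 21 h, 14.0 after 35 h, 8.52 after 49 h, 0.165 at day 6 and 0.0441 in Sox17-XEN. It stood at 0.0473 FPKM in wild-type XEN, against 16.6 in R1 ESC. Its level after 7 h was the highest of the 9 libraries, and the 3 libraries of day 6 and the XEN type lay below all others, with differences of -3.73, -3.89 and -4.07. Slc44a3 (chr3:121162447-121238356), a relative of choline carriers, stood at 0.241 FPKM without dox, 0.195 after 7 h, 0.388 after 21 h, 0.610 after 35 h, 1.12 after 49 h, 59.0 at day 6 and 4.70 in Sox17-XEN. It stood at 7.65 FPKM in wild-type XEN, against 0.211 in R1 ESC. Day 6 was thus its highest library, and its difference there was the largest of any member at day 6. Slc44a4, of the same family, was high at day 6 alone, at 21.1 FPKM against 1.60 without dox. Slc25a20, the mitochondrial carnitine-acylcarnitine carrier, stood at 7.92 FPKM without dox, 13.6 after 7 h, 11.1 after 21 h, 18.5 after 35 h, 25.8 after 49 h and 55.7 at day 6, but at 12.3 FPKM in Sox17-XEN and 8.91 in wild-type XEN. The highest of the class in wild-type XEN and in R1 ESC was Slc44a2, at 25.2 and 20.8 FPKM. Slc27a3, an acyl-CoA synthetase of the fatty acid carrier family, was higher in both XEN-type lines, at 34.4 FPKM in Sox17-XEN and 22.5 in wild-type XEN, against 6.27 without dox and 3.48 in R1 ESC.

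Of the 4 monocarboxylate and citrate transporters, 2 were higher at day 6, and 1 in each XEN-type line. Slc16a1, the lactate and pyruvate carrier MCT1, stood at 155 FPKM at day 6, 134 in Sox17-XEN and 203 in wild-type XEN, against 24.0 without dox and 26.0 in R1 ESC. It had already 41.3 FPKM after 21 h, 39.0 after 35 h and 37.1 after 49 h, which is less than a 4-fold difference. Slc16a3, the lactate carrier MCT4 whose promoter window is printed above, had a difference of 1.66 at day 6 and in wild-type XEN. Slc13a5, a citrate importer of liver, stood at 31.5 FPKM at day 6, against 0.484 without dox, and at 2.44 FPKM in Sox17-XEN and 4.21 in wild-type XEN. Bsg, the partner that MCT1 and MCT4 need to reach the membrane, had 1169 FPKM at day 6, 645 in Sox17-XEN and 841 in wild-type XEN, against 194 without dox and 198 in R1 ESC.

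Among the 22 mitochondrial carriers, 1 was higher at day 6, 0 in Sox17-XEN and 1 in wild-type XEN, and 0 were lower in any of the 3, with median differences of 0.19, 0.09 and 0.63. The higher share was 4.55% at day 6 and in wild-type XEN, against 7.2% and 11.8% of rows with 10 FPKM or more. Slc25a22, a glutamate carrier, was the one at day 6, at 88.7 FPKM against 16.3 without dox, and Slc25a30 the one in wild-type XEN, at 19.5 FPKM against 3.35 in R1 ESC. The adenine nucleotide carriers Slc25a4 and Slc25a5 went opposite ways by less than 2. Slc25a4 stood at 143 FPKM at day 6, 215 in Sox17-XEN and 337 in wild-type XEN, against 102 without dox and 100.0 in R1 ESC. Slc25a5 stood at 157, 165 and 219 FPKM in the first 3, against 438 without dox and 546 in R1 ESC. Slc25a3 stood between 212 and 296 FPKM in all 9 libraries.

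Of the 18 inorganic ion transporters, 4 were higher and 1 lower at day 6, 4 higher and 1 lower in Sox17-XEN, and 4 higher and 0 lower in wild-type XEN. Slc26a2 (sulfate) and Slc34a2 (phosphate, chr5:53429321-53462903) were among those higher in all 3. Slc26a2 stood at 59.3 FPKM at day 6, 21.2 in Sox17-XEN and 35.9 in wild-type XEN, against 4.31 without dox and 2.51 in R1 ESC. Slc34a2 stood at 26.3, 5.05 and 10.8 FPKM in the first 3, against 0.0333 without dox and 0.126 in R1 ESC. Slc24a6, now named Slc8b1, the sodium-calcium exchanger of mitochondria, was higher at day 6 at 55.1 FPKM, against 7.45 without dox. Slc12a7, a potassium-chloride cotransporter, was higher in Sox17-XEN at 66.6 FPKM, against 13.0 without dox, and Slc4a2, an anion exchanger, was higher in wild-type XEN at 34.5 FPKM, against 7.88 in R1 ESC. The highest of the class in wild-type XEN was Slc12a4, another potassium-chloride cotransporter, at 68.7 FPKM, and the highest in R1 ESC was Slc20a1, a phosphate carrier, at 70.1 FPKM. Slc4a5, a bicarbonate cotransporter, was lower at day 6 and in Sox17-XEN, at 3.92 and 3.58 FPKM against 19.3 without dox.

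Of the 7 vitamin transporters, 1 was higher at day 6 and 0 differed in the XEN-type lines. Slc46a1, the proton-coupled folate carrier, was that one, at 37.1 FPKM at day 6 against 6.22 without dox. The highest of the class in wild-type XEN and in R1 ESC was Slc19a2, a thiamine carrier, at 45.1 and 15.5 FPKM. Slc6a2, the noradrenaline carrier of neurons (chr8:95483978-95525566), was seen in Sox17-XEN at 33.6 FPKM, against 0.0134 without dox, and stood at 1.76 FPKM in wild-type XEN and at most 0.142 in the other libraries. Slc22a17, a receptor for lipocalin-2, was the other higher member without an assigned class, at 35.8 FPKM in Sox17-XEN against 6.42 without dox. Slc17a9, which loads ATP into vesicles, stood at 24.3 FPKM at day 6, 2.70 in Sox17-XEN and 0.313 in wild-type XEN, against 13.4 without dox and 17.7 in R1 ESC, and was past 2 in wild-type XEN. The scaffold gene Slc9a3r1 stood at 42.7 FPKM without dox, 40.5 after 7 h, 107 after 21 h, 116 after 35 h, 114 after 49 h, 231 at day 6 and 31.8 in Sox17-XEN, and at 130 FPKM in wild-type XEN, against 29.4 in R1 ESC.

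In the first 49 h of dox few transporters differed, and few of all rows did. Of the 139 members, 0 were higher or lower after 7 h, where 0.446% of rows with 1 FPKM or more were higher and 0.34% lower. At 21 h, 35 h and 49 h, 0 were higher and 1 was lower, which was Slc7a3 each time. The background shares were 0.746% higher and 0.446% lower after 21 h, 0.614% and 0.46% after 35 h, and 0.706% and 0.466% after 49 h. Differences of 1 or more, which is 2-fold in FPKM + 1, were few among members and among all rows. Of rows with 10 FPKM or more, 108 of 9415 were higher by that size and 178 lower at 7 h. These counts were 247 and 194 of 9415 at 21 h, 257 and 174 of 9400 at 35 h, and 354 and 180 of 9412 at 49 h. Among members, at 7 h there was Slc27a2 at 1.02. At 21 h there were Slc9a3r1 at 1.30, Slc28a1 just above -2 and Slc6a15, a carrier of branched-chain amino acids and proline, at -1.19, beside Slc7a3. At 35 h the highest of 6 were Slc9a3r1 at 1.42, Slc25a20 at 1.13, Slc15a2 at 1.11 and Slc39a11, a zinc carrier, at 1.07, and the lowest after Slc7a3 were Slc6a15 at -1.48, Slc28a1 at -1.47 and the creatine carrier Slc6a8 at -1.02. At 49 h the highest were Slc25a20 at 1.59, Slc9a3r1 at 1.39, the zinc exporter gene Slc30a1 at 1.01 and Slc40a1 at 1.01, and the lowest after Slc7a3 were Slc28a1 at -1.57 and Slc6a15 at -1.31. Slc7a3, Slc28a1 and Slc6a15 each had their lowest early level after 21 h or 35 h. The induced gene itself, Sox17, stood at 0.909 FPKM without dox and 283 after 7 h.

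**Figure D4:**
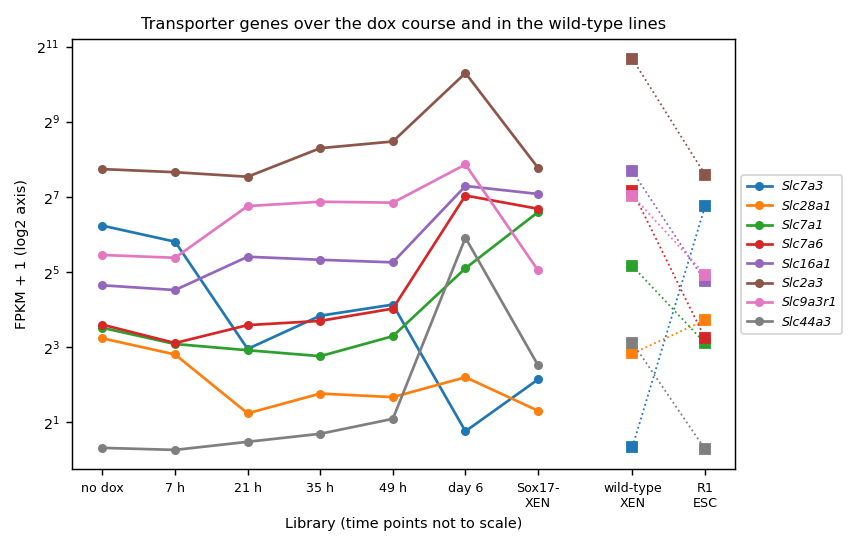
FPKM + 1 on a log2 axis of 8 transporter-type genes over the dox course, from the Sox17 line without dox through 7 h, 21 h, 35 h, 49 h and day 6 to Sox17-XEN (circles, not to scale in time), and in wild-type XEN and R1 ESC (squares), with 1 library per point. Slc7a3 is at 6.71 FPKM after 21 h of dox, against 74.1 without dox, while Slc7a1, Slc7a6 and Slc44a3 stay at 15.2 FPKM or less to 49 h and stand at 33.2, 130 and 59.0 FPKM at day 6.

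The agreement between lines was read from the 2 pairs that share no library. Of the 21 members higher in Sox17-XEN than without dox, 16 (76.2%) were also higher in wild-type XEN than in R1 ESC, which is 64% of the 25 higher there. Of the 6 lower in each pair, 4 (66.7%) were shared, namely Slc7a3, Slc38a4, Slc15a2 and Slc27a2. Of the rows with 10 FPKM or more, the shared shares were 69.5% and 48.1% for higher rows and 74.5% and 57.6% for lower rows. Over the 139 members the 2 sets of differences had a Pearson correlation of 0.79 and a Spearman correlation of 0.72, across genes that are not independent replicates, against 0.74 and 0.75 over the rows with 10 FPKM or more. For day 6 against no dox and wild-type XEN against R1 ESC, 12 members were higher in both, which is 46.2% of 26 and 48% of 25, and 2 were lower in both, which is 66.7% of 3 and 33.3% of 6. The background was 58% and 35.4% for higher rows and 70.2% and 44.8% for lower rows, and the correlations over members were 0.61 (Pearson) and 0.47 (Spearman), against 0.61 and 0.61 over the rows with 10 FPKM or more.

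**Figure D5:**
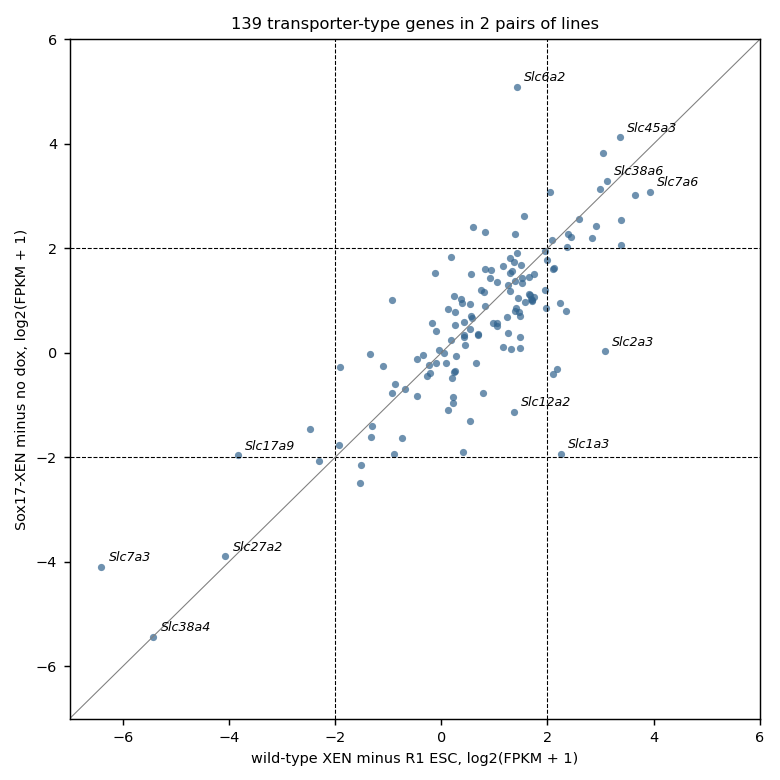
Difference in log2(FPKM + 1) of each of the 139 transporters in Sox17-XEN against the Sox17 line without dox and in wild-type XEN against R1 ESC, which share no library, with lines at 2 and -2. Most points lie along the diagonal (Pearson correlation 0.79), while Slc1a3 and Slc2a3 lie well off it.

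A direct comparison of the 2 XEN-type lines showed 3 members higher and 3 lower in Sox17-XEN than in wild-type XEN, where 2.73% of rows with 1 FPKM or more were higher and 1.59% lower. The higher ones were Slc6a2 at 3.65, Slc43a2 at 2.40 and Slc43a3 at 2.20. The lower ones were Slc1a3 at -3.99, Slc2a3 at -2.90 and Slc29a2 at -2.32. The fibroblast genes were also higher in Sox17-XEN than in wild-type XEN, 17 of 20 of them, and their part in these differences was not tested. At day 6, 15 members were higher and 1 lower than in wild-type XEN, where 4.11% of rows were higher and 2.18% lower. The higher ones were led by Slc38a4 at 4.74, Slc17a9 at 4.27, Slc39a4 at 3.77 and Slc7a8 at 3.55, and the lower one was Slc45a3. Between the 2 ESC lines, 0 members were higher or lower in the Sox17 line without dox than in R1 ESC, where 0.367% of rows were higher and 0.227% lower. Their difference of 1 or more was 1.30 for Slc39a14, a zinc and iron carrier, and no other member reached it.

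With each line as 1 unit, Sox17-XEN and wild-type XEN were set against both ESC lines without dox in a limma fit over 14925 rows, asking for a difference of 2 or more and a Benjamini-Hochberg adjusted p under 0.05. Of the 139 members, 16 rose and 6 fell, against 4.85% and 3.89% of all rows tested (7.17% and 4.31% of those with 10 FPKM or more). The p-values rest on the spread between the 2 lines of a type, moderated over all rows. With 1 library per line, spread between lines and between libraries cannot be told apart. Sox17-XEN comes from the Sox17 line, whose library without dox is in the other group, so the 4 units are not fully independent. Among the 22 were Slc7a1, Slc7a6, Slc36a4, Slc38a1, Slc38a5 and Slc38a6 for amino acids, Slc37a4, Slc45a3 and Slc50a1 for sugars, Slc39a8 for zinc, Slc27a3 and Slc44a3 for lipids, Slc16a1 for lactate, and Slc26a2 and Slc34a2 for ions, which rose, and Slc15a2, Slc38a4, Slc27a2, Slc40a1 and Slc17a9, which fell. The marker Slc7a3 is counted among the 6 because the fit covers all rows, and that call is no test of a gene chosen for its pattern. Slc38a4 fell by 5.43 on the log2 scale (SE 0.31, limma adjusted p = 0.0171), and Slc27a2 fell by 3.98 (SE 0.29, limma adjusted p = 0.0171). Slc7a6 rose by 3.51 (SE 0.27, limma adjusted p = 0.0171) and Slc39a8 rose by 2.58 (SE 0.29, limma adjusted p = 0.0183). Slc7a1 rose by 2.57 (SE 0.56, limma adjusted p = 0.0482), close to the threshold. The calls needed both ESC lines. Leaving out either leaves 1 library in that group, and the calls were then lost over the whole table. That loss is thus not particular to the members. With each library centred on the median of the rows at 1 FPKM or more in all 4, limma called 10 members higher and 9 lower, against 2.75% and 7.87% of all rows tested.

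Genes that work with these carriers were read from lists chosen with earlier results of these data known. Of all rows with 1 FPKM or more, 5.14% were higher and 3.86% lower at day 6. These shares were 5.75% and 5% in Sox17-XEN, and 8.24% and 6.54% in wild-type XEN. In lists this small, 1 gene of 12 is near such a share. Of 12 iron-handling genes, 1 was lower in each comparison and 0 were higher. Tfrc, the receptor that takes up iron bound to transferrin, stood at 2.32 FPKM at day 6, against 62.1 without dox, but at 20.0 FPKM in Sox17-XEN and 50.2 in wild-type XEN. The lower one in both XEN-type lines was Steap3, an iron reductase, with differences of -2.41 and -2.72. Of 9 zinc and copper genes, 0 differed at day 6, 2 were lower in Sox17-XEN, and 1 was higher and 2 lower in wild-type XEN. Mt2, a metal-binding metallothionein, stood at 94.5 FPKM at day 6, 12.2 in Sox17-XEN and 2.90 in wild-type XEN, against 133 without dox and 372 in R1 ESC. Of 20 genes of amino acid synthesis and the ATF4 response, 1 was higher and 2 lower at day 6, 4 higher and 2 lower in Sox17-XEN, and 0 higher and 2 lower in wild-type XEN. Cth, which makes cysteine, stood at 0.680 FPKM at day 6, 17.4 in Sox17-XEN and 0.853 in wild-type XEN, against 27.8 without dox and 60.3 in R1 ESC. Ggt1, which frees amino acids from extracellular glutathione, stood at 93.6 FPKM at day 6, against 3.03 without dox. Chac1 and Ddit3, targets of the ATF4 response, were higher in Sox17-XEN by 2.76 and 2.34.

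Of 14 nucleoside salvage genes, 0 differed at day 6 and 1, Dctpp1, was lower in each XEN-type line. Those counts are near the shares of all rows given above for the lists. Upp1, which cleaves uridine, stood at 165 FPKM without dox, 138 after 7 h, 21.3 after 21 h, 37.2 after 35 h and 58.8 after 49 h, and so was low at the same early times as Slc28a1. Of 5 measured partner proteins of transporters, 2 were higher at day 6 and 1 in Sox17-XEN, and 2 were higher and 1, Emb, lower in wild-type XEN. Of 19 measured transporters whose symbols or levels left them outside the rule, 3 were higher and 1 lower at day 6, 5 higher and 2 lower in Sox17-XEN, and 6 higher and 2 lower in wild-type XEN. Slco2a1, the prostaglandin carrier, was the largest of these, at 38.4 FPKM at day 6, 145 in Sox17-XEN and 107 in wild-type XEN, against 1.76 without dox and 0.461 in R1 ESC.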

How the data were processed

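Total RNA was extracted with Trizol and sequenced after TruSeq library preparation, per the labels. Cell RNA levels were deposited by the authors as FPKM for each gene row, with confidence bounds and a status. Reads were processed with TopHat2 2.0.11, Cufflinks 2.1.2 and Cuffdiff on mm9, per the submitters' processing notes. Files' coordinates are 1-based in mm9. Without counts the depth is unknown, and neither counting intervals nor floors were computed. Relative to R1 ESC, steps among low values put it between 61.9% (day 6) and 127% (7 h), a rough estimate shared by 6.57% to 13.5% of low rows. The lower bound was 0 for 96% of member values of 10 FPKM or more. All member estimates were accepted. Of the members, 53 (38.1%) share their listed locus with another row (Slc7a5 with 159), so those values are less certain, and strand use is not stated.

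Values were used as log2(FPKM + 1). Pairs of single libraries have no test. The fit across lines used limma 3.58.1 in R 4.3.3 with empirical Bayes moderation and a mean trend on rows with a maximum of 1 FPKM or more, two-sided, and was tested on simulated data. Other values were computed in pandas 2.3.3 and numpy 2.4.6 under Python 3.11.15, and figures drawn with matplotlib 3.10.9. Members, classes and gene lists were chosen with earlier results of these data known. Named were Slc7a3, Slc1a3, up to 4 members per class and direction in each of 3 comparisons, up to 4 per direction at each early time and between lines, and the highest member of each class. Others named, as relatives or partners of these and in the promoter search, were chosen after their values were seen. Alternatives were another pseudocount, a 2-fold size, centring on the median, no filter, other limma settings and each line left out. One member, included in the counts, is not reported here by name.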

Additional observations from a re-analysis of the deposited data

Results flagged for a closer look

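In these transporters the wild-type pair and the Sox17 line moved opposite ways by more than 1 log2 unit. Slc1a3, the glutamate carrier, differed by -1.93 in Sox17-XEN against the Sox17 line without dox and by 2.26 in wild-type XEN against R1 ESC. It is a marker chosen for its known pattern in these data, so its place here is a description. Slc12a2, a sodium-potassium-chloride cotransporter, differed by -1.13 in Sox17-XEN and by 1.37 in wild-type XEN, with levels of 3.41 FPKM in Sox17-XEN against 8.63 without dox, and of 16.6 FPKM in wild-type XEN against 5.803 in R1 ESC. Each group is 1 library, so the difference between the pairs was not tested.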

How the results depend on the processing

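Of the members past 2 at day 6, in Sox17-XEN or in wild-type XEN, no member changed sign with centring or with a pseudocount of 0.1. Neither setting could have reversed such a member. Centring removed at most 0.45, and a pseudocount added to both libraries keeps their order. The other alternatives, and limma, were compared by the number of calls, which cannot show a reversal either. At a difference of 1 or more, 68 members were called at day 6 (60 higher, 8 lower), 76 in Sox17-XEN (58, 18) and 81 in wild-type XEN (67, 14). The count was 43 at day 6 against wild-type XEN, 31 in Sox17-XEN against wild-type XEN, and 1 between the ESC lines. It was 1 at 7 h, 4 at 21 h, 10 at 35 h and 7 at 49 h. Of rows with 10 FPKM or more, 2100 of 9397 were higher by that size and 1055 lower at day 6. These counts were 2453 and 1178 of 9393 in Sox17-XEN, and 3079 and 1194 of 9390 in wild-type XEN. Against wild-type XEN they were 1002 and 1090 of 9391 at day 6, and 850 and 707 of 9389 in Sox17-XEN. Between the ESC lines they were 377 and 181 of 9400, and those for the early times are given above. Centred on the median, wild-type XEN against R1 ESC had 20 calls, and the share of calls that were higher was 54.2% in Sox17-XEN against 77.8% uncentred, 60% in wild-type XEN against 80.6%, and 52.6% in limma against 72.7%. Of the members called uncentred, 25 of 29 at day 6, 19 of 27 in Sox17-XEN and 18 of 31 in wild-type XEN were still past 2. With a pseudocount of 0.1, 11 members were called between the XEN-type lines, 2 at 21 h and 2 at 35 h. The matching shares over all rows were not computed, so these counts are no result about the members. In limma that pseudocount raised the shares of all rows tested from 4.85% higher and 3.89% lower to 6.23% and 8.36%. Limma called 47 members by adjusted p alone, 4 without a filter on low values, and 0 to 21 when each line was left out. The 47 by adjusted p alone were 36 higher and 11 lower, against 11.6% and 9.89% of all rows tested. Without the filter the shares of all rows tested were 0.387% and 0.374%. With the line of origin as a replicate block, limma called 19 (15 higher, 4 lower), against 4.4% and 3.73% of all rows tested. That block pairs Sox17-XEN with its parent line and sets wild-type XEN beside R1 ESC, which are different lines, so the labels give no pairing for the wild-type pair. Alternatives chosen after seeing the data were R1 ESC as the control and leaving out members with a shared locus. With R1 ESC there were 31 calls at day 6 and 36 in Sox17-XEN. Without shared loci 86 members were left, with 21 calls at day 6, 22 in Sox17-XEN, 21 in wild-type XEN and 18 in limma. Those are counts out of fewer members, so they are not comparable with the calls in the full set. No share over all rows with an unshared locus was computed. With 1 library per group and an unknown depth, levels under about 1 FPKM and differences near 2 are the least certain.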
